A study of Mus musculus with 6 samples.

Results

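The genes of the collagen chains were examined in LSK cells, which are sorted from mouse bone marrow as lacking lineage markers and carrying Sca1 and c-Kit, and which include the stem cells and early progenitors of blood. A gene was taken as a collagen gene when its annotated symbol was Col, a number, the letter a and a number, which gave 42 of the 18193 genes that had a probe set of their own on the array. These 42 genes held 82 of the 45037 probe sets, and each gene was represented by the probe set with the highest mean over the 6 arrays. Values are log2 intensities made by RMA, a procedure that subtracts background, brings every array to 1 distribution and combines the probes of each set into 1 value.

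The study compared wild-type (WT) C57BL/6 mice with IkL/L mice of the same strain, which are homozygous for the IkL mutation of Ikzf1, an allele that lowers the amount of the transcription factor Ikaros. Each genotype had 3 arrays, from animals of 6 to 7 weeks, and the labels name no treatment. A WT sample was 1 mouse and an IkL/L sample was a pool of cells from 2 mice, so that p-values below measure the spread between samples that differ in the number of animals behind them. The marrow was depleted of cells with surface markers of B cells, myeloid cells and erythroid cells before sorting, and the sort then took cells with Sca1 and c-Kit at a purity that the methods state as high.

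Collagens are proteins of the extracellular matrix whose 3-chain helix is assembled inside the secreting cell. Types I, III and V form the fibrils of bone, skin and marrow stroma, type IV forms the sheet of basement membranes, and the other types bind, bridge or anchor these structures. In bone marrow, fibrillar collagens are known as products of osteoblasts, fibroblasts and mesenchymal stromal cells, whereas type IV chains are made by endothelial and perivascular cells and also by some haematopoietic cells.

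Collagen I, the main fibrillar collagen, is built from the chains of Col1a1 and Col1a2, and Col3a1 and Col5a1 encode chains of collagens III and V, which occur in the same fibrils. Of the 42 genes, 33 had a promoter window in the RefSeq table. Col1a1 and Col5a2, which were also high on WT 1 and WT 2, had none, so Col1a2 alone stands for the high genes here. The 250 bases upstream of 3 of the 33 genes are shown. Their chains share fibrils while their transcripts stood apart on these arrays, as described below. Col1a2 was high on WT 1 and WT 2, Col3a1 was low on all 6 arrays and Col5a1 was not high on WT 1 or WT 2. All 3 windows lie on the plus strand of GRCm38.p6, at chr6:4505368-4505617 for Col1a2, chr1:45311288-45311537 for Col3a1 and chr2:27886175-27886424 for Col5a1, and each ends at the base before the annotated start. Capitals mark CCAAT, a box bound by the factor NF-Y, found on either strand.
Col1a2: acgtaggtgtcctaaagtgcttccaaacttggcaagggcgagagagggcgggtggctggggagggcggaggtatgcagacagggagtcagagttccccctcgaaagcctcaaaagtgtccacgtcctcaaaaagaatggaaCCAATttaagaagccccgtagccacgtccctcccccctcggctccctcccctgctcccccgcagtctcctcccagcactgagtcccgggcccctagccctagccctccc
Col3a1: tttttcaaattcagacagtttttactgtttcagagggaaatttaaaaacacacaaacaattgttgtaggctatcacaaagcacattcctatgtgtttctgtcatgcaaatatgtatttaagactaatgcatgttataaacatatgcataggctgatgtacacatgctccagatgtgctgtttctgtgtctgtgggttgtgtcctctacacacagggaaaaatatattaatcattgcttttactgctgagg
Col5a1: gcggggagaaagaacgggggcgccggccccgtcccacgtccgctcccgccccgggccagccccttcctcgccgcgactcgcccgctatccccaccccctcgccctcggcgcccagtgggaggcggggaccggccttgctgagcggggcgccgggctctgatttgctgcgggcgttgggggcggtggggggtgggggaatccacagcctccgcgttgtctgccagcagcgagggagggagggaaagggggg
The Col1a2 window held 1 CCAAT, 109 bases before the start, and the Col3a1 and Col5a1 windows held 0. CCAAT, searched on both strands, occurred in 36.1% of the 36 windows of collagen genes and in 33.8% of all 32851 windows of that length. The letters TATAA, the core of a TATA box, occurred in 19.4% against 22.8%, with 2 matches in the Col3a1 window, which overlap on opposite strands, and 0 in the windows of Col1a2 and Col5a1. AGGAA, letters within sites that Ikaros and ETS factors can bind, occurred in 55.6% against 60.3%, with 0 in the Col1a2 window and 1 in each of the other two. In the 3 windows shown no match of one motif overlaps a match of another, and a match is a description of the sequence and not a binding site.

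Most collagen genes gave low and even values. The median of all probe sets lay between 4.79 and 4.88 on the 6 arrays, and 22 collagen genes were below their array's median on every array, 13 were above it on every array and 7 were mixed. Because RMA makes no call of presence or absence, low values may be background alone, and differences of such genes are given on the log2 scale. In 37 of the 42 genes the values of the 6 arrays lay within 1 of each other. The 5 genes with a wider range were Col1a1, Col1a2 and Col5a2 among the fibrillar collagens, and Col4a1 and Col4a2, the chains of the common type IV network.

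**Figure D1:**
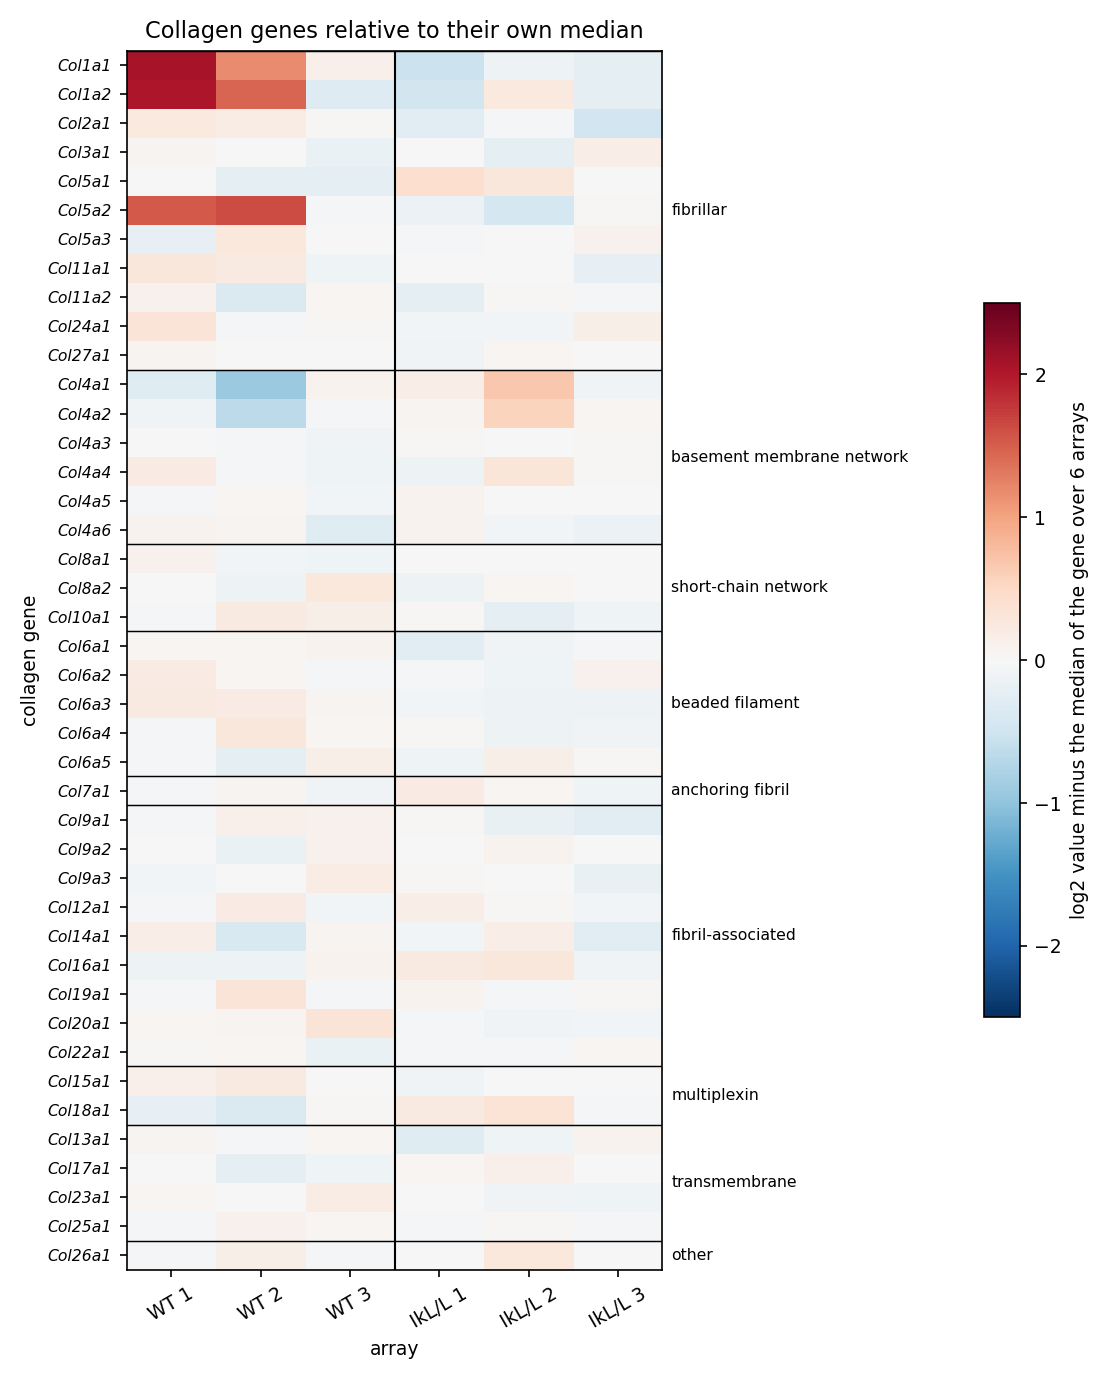
Heat map of the 42 collagen genes (vertical axis, grouped by type of collagen) on the 6 arrays (horizontal axis). Colour gives the log2 value minus the gene's own median over the 6 arrays, and the vertical line divides WT from IkL/L. Col1a1, Col1a2 and Col5a2 are at least 1 above their own median on WT 1 and WT 2, and Col4a1 and Col4a2 are highest on IkL/L 2 and lowest on WT 2.

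Col1a1, the alpha-1 chain of collagen I, had values of 6.36, 5.47 and 4.43 on WT 1, 2 and 3 and of 3.75, 4.16 and 4.08 on IkL/L 1, 2 and 3. All WT arrays were above all IkL/L arrays, but WT 3 was closer to the IkL/L arrays than to WT 1. The difference of IkL/L from WT was -1.43 on the log2 scale (SE 0.41, 95% interval -2.38 to -0.47, limma, unadjusted p = 0.00883), with an adjusted p of 0.303 that did not pass 0.05. As the IkL/L values lay below the array medians, no fold is given. In a bulk sample, fewer cells of a type and less RNA per cell cannot be told apart.

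Col1a2, the alpha-2 chain that joins Col1a1 in the same helix, had values of 10.12, 9.56 and 7.78 on the WT arrays and of 7.65, 8.34 and 7.87 on the IkL/L arrays. WT 1 and WT 2 stood above the rest, WT 3 lay among the IkL/L arrays, and the groups overlapped. The mean was 9.16 ± 1.22 in WT and 7.95 ± 0.35 in IkL/L (SD, n = 3), which is 2.3-fold lower in IkL/L (log2 difference -1.20, 95% interval -2.42 to 0.02, adjusted p = 0.574 by limma). Its level was above the array median on all 6 arrays, IkL/L included.

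Col5a2, the alpha-2 chain of collagen V, which starts and limits the fibrils of collagen I, had values of 5.52, 5.61 and 3.95 on the WT arrays and of 3.83, 3.55 and 4.01 on the IkL/L arrays. WT 1 and WT 2 were again the high arrays, and WT 3 fell inside the range of IkL/L. The log2 difference was -1.23 (SE 0.40, 95% interval -2.16 to -0.30), with an adjusted p of 0.387 by limma. The SD between WT arrays was 0.96 for Col1a1 and 0.93 for Col5a2, each above that of 99.8% of all genes, whereas the median SD over the 42 collagen genes was 0.136 in WT and 0.118 in IkL/L, next to 0.135 and 0.125 over all genes.

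**Figure D2:**
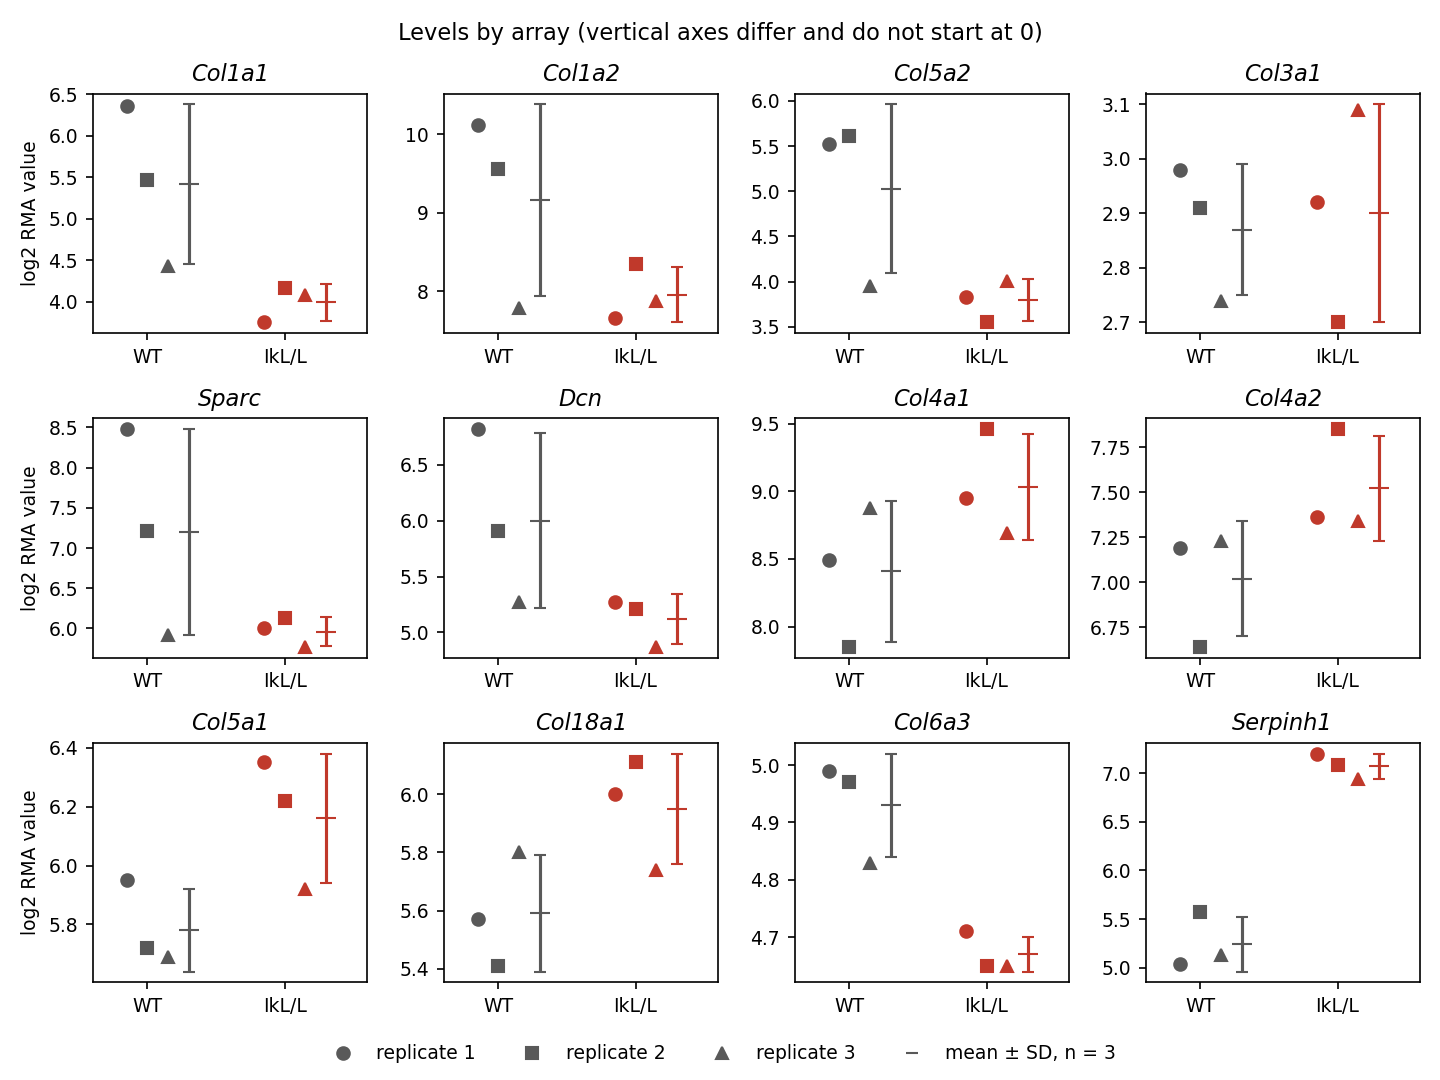
Log2 RMA value (vertical axes, which differ and do not start at 0) of 9 collagen genes and of Sparc, Dcn and Serpinh1 on each array, by genotype (horizontal axis). Each point is 1 array, its shape gives the replicate, and the bar beside the points is the mean of 3 arrays ± SD. For Col1a1, Col1a2 and Col5a2 the spread lies among the WT arrays, whose highest values are 6.36, 10.12 and 5.61.

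These 3 genes were the only collagens that stood at least 1 above their own median on any array, and they did so on WT 1 and on WT 2. On WT 1 that is 7.14% of the collagen genes, where 34 of all genes, or 0.187%, stood as high. On WT 2 it is likewise 7.14%, where 13 of all genes, or 0.0715%, did. On WT 3, IkL/L 1, IkL/L 2 and IkL/L 3 the number of collagens was 0, among 4, 58, 136 and 32 genes in all.

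Both conditions together, WT 1 and WT 2, were met by 6 of the 18193 genes (0.033%), and 3 of the 6 were Col1a1, Col1a2 and Col5a2. The other 3, chosen here by that condition, were Sparc, Ddx4 and Il7r. Sparc, a secreted glycoprotein that binds fibrillar collagen, stood at 8.48, 7.21 and 5.92 on the WT arrays and at 6.00, 6.13 and 5.77 on the IkL/L arrays. Ddx4, an RNA helicase of germ cells, was also high on WT 3 (7.66) and differed from the collagens in that respect. Its IkL/L values were 4.04, 4.44 and 3.7. Il7r, the receptor of interleukin 7 on lymphoid progenitors, stood at 7.54, 7.79 and 6.53 in WT and at 5.94, 6.46 and 5.48 in IkL/L. For Il7r, as for Col1a1 but not Col1a2 or Col5a2, WT 3 was above all IkL/L arrays. Of the other 14 pairs of arrays, each shared between 0 and 35 genes that stood this high, and 0 of them were collagens.

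**Figure D3:**
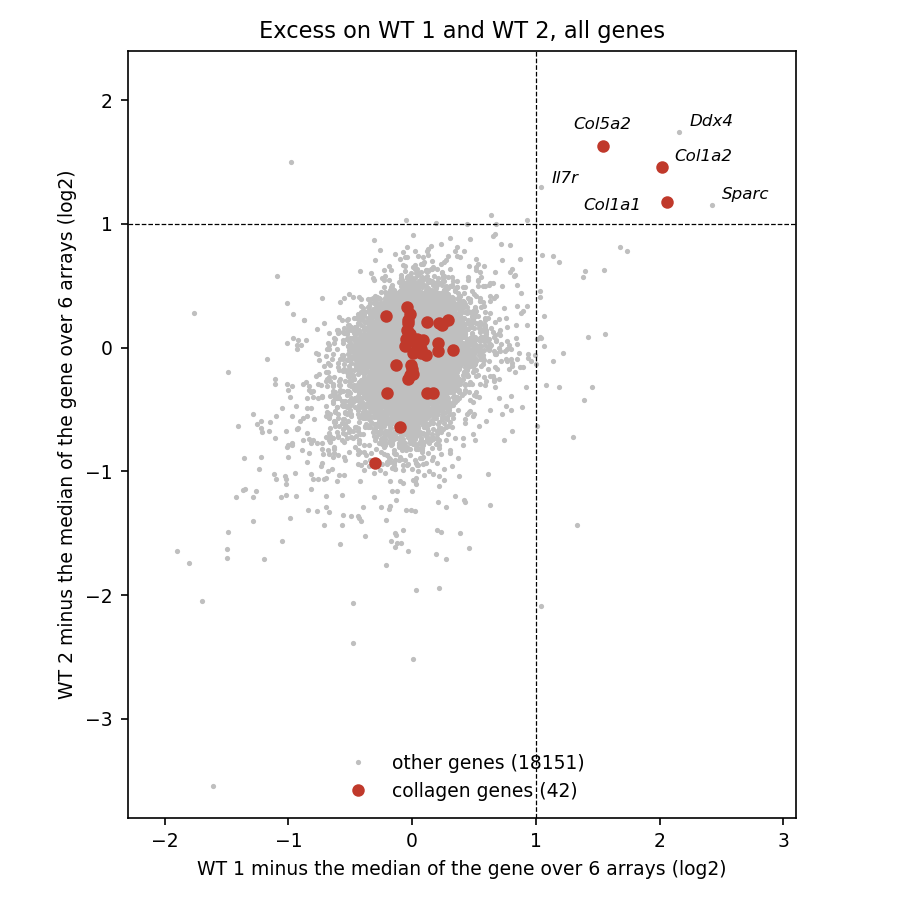
Each point is a gene, placed by its log2 value on WT 1 (horizontal axis) and on WT 2 (vertical axis) minus its own median over the 6 arrays. Broken lines mark an excess of 1. The upper right field holds 6 genes, of which Col1a1, Col1a2 and Col5a2 are collagens (red), while the other collagens lie near 0 or, as with Col4a1, below it on WT 2.

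Counted without a size limit, WT 1 and WT 2 were the 2 highest arrays for 7 collagen genes (16.7%), against 11.6% of all genes. Besides the 3 genes above these were Col2a1, Col6a3, Col11a1 and Col15a1, whose ranges over the 6 arrays were under 1. Col2a1, the chain of cartilage collagen, had values of 4.98, 4.92 and 4.76 on the WT arrays and of 4.48, 4.71 and 4.25 on the IkL/L arrays (difference -0.41, adjusted p = 0.392 by limma).

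The other chains of the same fibrils did not stand high on WT 1 and WT 2. Col3a1, the chain of collagen III, a frequent partner of collagen I, lay between 2.70 and 3.09 on all 6 arrays, with a difference of 0.03 (95% interval -0.27 to 0.32), and its other probe set also gave 0.03. Col5a1, which combines with Col5a2 in collagen V, had values of 5.95, 5.72 and 5.69 in WT and of 6.35, 6.22 and 5.92 in IkL/L. The lowest IkL/L array was just under the highest WT array, and the difference was 0.38 in the direction opposite to Col5a2 (95% interval 0.06 to 0.70, adjusted p = 0.458 by limma). In the gene order of RefSeq, Col3a1 and Col5a2 are neighbours. The remaining fibrillar genes, Col5a3, Col11a1, Col11a2, Col24a1 and Col27a1, differed between genotypes by no more than 0.20 in either direction.

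Probe sets of a gene did not always move alike. The other probe set of Col1a1 gave 4.57, 4.22 and 4.02 in WT and 3.83, 3.79 and 3.98 in IkL/L, a smaller difference of -0.40. For Col1a2, a dimmer probe set repeated the pattern with 8.07, 8.15 and 5.42 in WT and 5.50, 5.92 and 5.61 in IkL/L (difference -1.54, adjusted p = 0.552 by limma), while the dimmest lay between 2.8 and 3.28 throughout. The other probe set of Col5a2 stayed between 3.52 and 3.90, with a difference of -0.05. A probe set of Col5a1 with lower values gave 4.41, 4.36 and 4.42 in WT and 5.32, 5.84 and 4.82 in IkL/L, groups that did not overlap (difference 0.93, adjusted p = 0.193), and its remaining one gave -0.04.

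Type IV collagen showed a different arrangement of arrays. Col4a1 had values of 8.49, 7.85 and 8.88 on the WT arrays and of 8.95, 9.46 and 8.69 on the IkL/L arrays, and Col4a2 had 7.19, 6.64 and 7.23 in WT and 7.36, 7.85 and 7.34 in IkL/L. Both chains, which assemble together and whose genes are neighbours transcribed in opposite directions, were highest on IkL/L 2 and lowest on WT 2. The groups overlapped for Col4a1, where WT 3 was above IkL/L 3, and not for Col4a2.

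Col4a1 was 1.54-fold higher in IkL/L (log2 difference 0.63, 95% interval -0.02 to 1.27, adjusted p = 0.583 by limma) and Col4a2 was 1.41-fold higher (0.50, 95% interval 0.04 to 0.96, adjusted p = 0.517), and neither passed the threshold. With WT 2 left out these log2 differences were 0.35 and 0.31, and with IkL/L 2 left out 0.41 and 0.33. The second probe set of Col4a1 gave 0.25. The chains of specialised basement membranes, Col4a3 to Col4a6, lay between 3.12 and 4.97 and differed by 0.01 to 0.05. The other probe sets of these genes were below the array medians on every array. Those of Col4a3, Col4a5 and Col4a6 gave 0.25, 0.35 and 0.24 without overlap (adjusted p = 0.488, 0.237 and 0.538 by limma). Those of Col4a4 gave -0.05 and -0.1.

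Col18a1, a collagen of vascular basement membranes that carries the endostatin sequence, had values of 5.57, 5.41 and 5.80 in WT and of 6.00, 6.11 and 5.74 in IkL/L. IkL/L 3 lay inside the WT range, and the difference was 0.36 (95% interval 0.03 to 0.68, adjusted p = 0.517 by limma). The other probe set of Col18a1 gave 5.25, 5.15 and 5.16 in WT and 6.15, 6.16 and 5.08 in IkL/L (difference 0.61, adjusted p = 0.573). The 2 highest arrays were IkL/L 1 and IkL/L 2 for Col4a1, Col4a2, Col5a1, Col16a1, Col17a1 and Col18a1, that is 14.3% of the collagen genes against 6.67% of all genes.

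Of the 5 measured genes of collagen VI, whose chains form beaded filaments around cells, 0 passed. Col6a3 had values of 4.99, 4.97 and 4.83 in WT and of 4.71, 4.65 and 4.65 in IkL/L (difference -0.26, 95% interval -0.48 to -0.04, adjusted p = 0.452 by limma). Col6a1 differed by -0.21 and Col6a2 by -0.09, and the groups did not overlap for Col6a1 and Col6a3. The other probe set of Col6a2 gave 5.87, 5.74 and 5.71 in WT and 5.55, 5.59 and 5.42 in IkL/L, without overlap (difference -0.25, adjusted p = 0.514). Col16a1, a fibril-associated collagen, was above the array medians on every array, between 6.95 and 7.36. The 30 collagens not described one by one differed by -0.22 to 0.20, with adjusted p-values from 0.641 to 0.998, and included the short-chain network genes Col8a1, Col8a2 and Col10a1, the anchoring fibril gene Col7a1, 9 fibril-associated genes and 4 transmembrane genes.

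Across the family, 0 of 42 collagen genes passed an adjusted p of 0.05 (limma, Benjamini-Hochberg method across all probe sets), where 0.989% of all genes did, 0.748% of them higher in IkL/L. By the unadjusted p at 0.05, 3 collagens were higher (7.14%, Col4a2, Col5a1 and Col18a1) where 5.83% of all genes were higher, and 4 were lower (9.52%, Col1a1, Col2a1, Col5a2 and Col6a3) where 5.35% were lower. The groups did not overlap with IkL/L higher in 2 collagens (4.76%) against 7.62% of all genes, and with IkL/L lower in 6 (14.3%) against 9.59%. The median difference was -0.02 over the 42 genes and -0.02 over all genes, with 19 above 0 and 23 below. The 95% interval lay within 0.5 of 0 in 33 of the 42 genes and within 1 of 0 in 38.

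**Figure D4:**
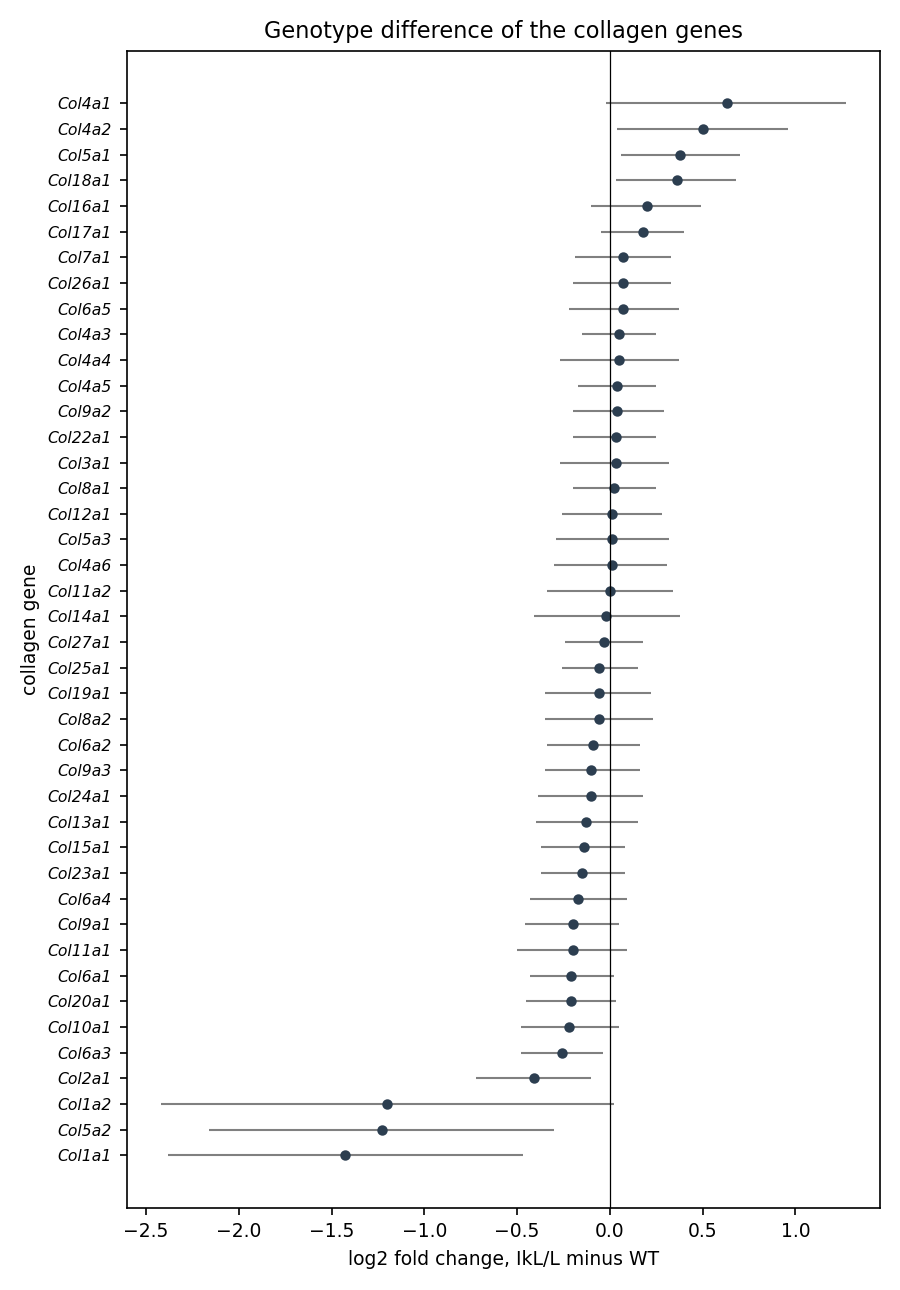
Log2 difference of IkL/L from WT (horizontal axis) of the 42 collagen genes (vertical axis), with 95% intervals from limma. The intervals of Col1a1, Col1a2 and Col5a2 are the widest, and most genes lie within 0.5 of 0.

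The genotype difference of the 3 fibrillar genes depended on which WT arrays were in the fit. Without WT 3, 3 of 42 collagens passed the threshold (7.14%), where 0.253% of all genes were lower by that test: Col1a1 (difference -1.92, adjusted p = 0.032), Col1a2 (-1.89, 0.0282) and Col5a2 (-1.76, 0.0087, limma). With WT 1, WT 2 or any 1 of the IkL/L arrays left out instead, 0 passed, and the difference of Col1a2 was -0.72 without WT 1. With both WT 1 and WT 2 left out, and the lone WT 3 assumed to vary like the other arrays, the differences were -0.44, 0.17 and -0.16, with adjusted p-values of 0.832, 0.985 and 0.979. These genes were singled out by their height on WT 1 and WT 2. The calls without WT 3 and the smaller differences without WT 1 or WT 2 follow from that choice and do not test genotype. For Col1a1, WT 3 remained above all IkL/L arrays.

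Of 30 measured genes that make, process and cross-link collagen (34 listed), 1 rose in IkL/L, where 0.748% of all genes did, and 0 fell, and the median difference was 0.06 against -0.02 over all genes. For P4ha2, Tll1 and Lox, 3 of the 30, WT 1 and WT 2 were the 2 highest arrays, against 11.6% of all genes. These 3 genes were below the array medians on every array. The gene that rose was Serpinh1, which encodes the collagen chaperone HSP47 of the endoplasmic reticulum. Its values were 5.04, 5.57 and 5.13 in WT and 7.2, 7.08 and 6.94 in IkL/L, with no overlap.

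The mean of Serpinh1 was 3.54-fold higher in IkL/L (5.24 ± 0.28 against 7.07 ± 0.13, SD, n = 3, adjusted p = 0.00361 by limma), and its other probe set gave a log2 difference of 2.27 (adjusted p = 0.002). Plod3, a lysyl hydroxylase and glycosyltransferase of collagen, had 7.94, 7.73 and 8.26 in WT and 8.50, 8.73 and 8.95 in IkL/L without overlap, but did not pass (difference 0.75, adjusted p = 0.142). P3h1 and P3h3, prolyl 3-hydroxylases, gave 0.55 (0.245) and 0.90 (0.296). The chaperone had its high values on the IkL/L arrays and Col1a1, Col1a2 and Col5a2 had theirs on WT 1 and WT 2.

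Among 10 measured collagen receptors (11 listed), 0 passed, and the median difference was 0.01. Itgb1, the shared beta chain of the collagen-binding integrins, gave 0.68 (adjusted p = 0.24 by limma) and Itga1 gave 0.34 (0.502). The other probe sets of Itgb1 gave -0.13 to 0.4.

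Of 19 measured genes of the interstitial matrix (20 listed), 0 passed, with a median of -0.08. For 5 of them WT 1 and WT 2 were the 2 highest arrays (11.6% of all genes): Sparc, Dcn, Lum, Aspn and Mgp. Lum, Aspn and Mgp were below the array medians on every array, and Mgp on WT 2 was level with IkL/L 1 at 3.44. Dcn, a proteoglycan on collagen fibrils, had values of 6.82, 5.91 and 5.27 in WT and of 5.27, 5.21 and 4.87 in IkL/L (difference -0.88, adjusted p = 0.501 by limma). Fn1, fibronectin, had its higher values in IkL/L, with 5.87, 5.38 and 5.41 in WT against 6.96, 7.10 and 6.02 in IkL/L (difference 1.14, adjusted p = 0.193). A dimmer probe set of Fn1 gave -0.03. Of the 12 genes of the basement membrane other than collagen, 0 passed, with a median of 0. WT 1 and WT 2 were the 2 highest arrays for 3 of them, Lama2, Lamc1 and Hspg2.

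Markers of cells that make fibrillar collagen were set beside the 3 genes. The 6 measured osteoblast markers, among them Sp7 and Ibsp, were below the array medians on every array, and their summed linear level was 94.0 to 98.4 in WT and 92.2 to 94.6 in IkL/L. Of the 17 markers of marrow mesenchymal cells 0 passed and 9 were below the array medians throughout, Lepr and Pdgfra among them. The groups did not overlap for Lepr, the leptin receptor (difference -0.32, unadjusted p = 0.0348, adjusted p = 0.509 by limma), for Kitl, the ligand of c-Kit (-0.28, 0.0252 and 0.462), and, with higher values in IkL/L, for Lpl, lipoprotein lipase (0.91, 0.00844 and 0.296). Among all genes the groups did not overlap in 9.59% with IkL/L lower and in 7.62% with IkL/L higher. Vcam1, an adhesion molecule, gave -1.11 (adjusted p = 0.625 by limma), with groups that overlapped. The summed level of the 17 markers was 10600 to 12500 in WT and 11300 to 12700 in IkL/L, but most of it came from Igfbp4, which lay between 12.72 and 13.17, so the sum says little about the dimmer markers. WT 1 and WT 2 were the 2 highest arrays for Foxc1 and Angpt1, 2 of the 17, against 11.6% of all genes. Foxc1 was below the array medians on every array. Cxcl12, the chemokine of these cells, was highest on WT 1 (6.41) but lowest on WT 2 (4.64), with 5.86 on WT 3 and 4.70 to 5.14 in IkL/L. The part of stromal cells in the collagen values was not tested.

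Pericyte and smooth muscle markers summed to 221 to 241 in WT and 209 to 222 in IkL/L, with 6 of 9 below the array medians, and chondrocyte markers to 140 to 143 and 133 to 137, with 6 of 8 below. In both lists 0 passed. Endothelial markers, 13 in number and none below the array medians on all 6 arrays, summed to 1670 to 2190 in WT and 1960 to 2470 in IkL/L, and 1 of them, Cdh5, rose, where 0.748% of all genes did. Cdh5 gave 2.5, and its other probe set gave 0.19 (adjusted p = 0.719 by limma). Egfl7 went the other way with -0.48 (adjusted p = 0.242), and the median over the 13 markers was 0.07. The part of the endothelial markers in the type IV values was not tested.

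The counts of higher genes in the blood lineage lists stand beside the same 0.748% of all genes. Megakaryocyte markers summed to 2130 to 3220 in WT and 5410 to 6830 in IkL/L, with 3 of 8 higher (Vwf, Itgb3 and Selp). B lineage markers summed to 486 to 621 and 959 to 1880, with 3 of 7 higher (Ms4a1, Vpreb1 and Mzb1). Neutrophil markers summed to 151 to 278 and 231 to 577, with 1 of 7 higher (Lcn2). Macrophage and erythroid markers had 0 passing genes, with sums of 398 to 581 and 629 to 900 in WT and of 617 to 754 and 1360 to 2730 in IkL/L. The macrophage markers did not move alike: Cd68 gave 1.17 and C1qa -0.87, and the median of that list was -0.12. In the erythroid list Car1 gave 1.65 and Alas2 -0.14, with a median of 1.01. A sum is set mostly by the brightest markers of its list. The 8 measured LSK markers were all above the array medians on at least some arrays, 0 passed, and WT 1 and WT 2 were the 2 highest arrays for 2 of them, Flt3 and Mecom. The part of these lists in the collagen values was not tested.

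Pairwise correlations between arrays over all probe sets were 0.9861 to 0.995, and 251 probe sets passed the threshold. Ikzf1, the targeted gene, stood at 11.57, 11.59 and 11.44 in WT and at 10.77, 10.85 and 10.93 in IkL/L (difference -0.68, adjusted p = 0.0307 by limma), and this call was lost when any array other than WT 3 was left out. A dimmer probe set of Ikzf1 gave -0.21 (adjusted p = 0.622 by limma). Where its probes lie with respect to the IkL mutation was not examined, so these values do not check the labels.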

How the data were processed

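LSK cells were measured on 6 Affymetrix mouse genome arrays, 3 per genotype. Per the labels, samples were amplified in 2 cycles and 100 ng of RNA was the input. The values deposited by the authors are log2 intensities after RMA (the submitters' processing notes name RMA and R 2.8), and the methods state normalization together with thymocyte arrays. Probe sets were named through the platform annotation, with symbols updated from the RefSeq table of GRCm38.p6: 34945 of 45037 had 1 gene, 932 several and 9160 were unlisted here. The deposited log2 values were used unchanged in limma 3.58.1 (R 4.3.3, lmFit and eBayes, IkL/L minus WT, all 6 arrays), and p-values of all probe sets were adjusted by the Benjamini-Hochberg method, with 0.05 as the threshold. No samples were excluded, and the number of arrays limits the precision.

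The members and the 15 gene lists (186 genes, 170 measured) were chosen with earlier results of these data known. Described singly were collagens at least 1 above their own median on an array or with an unadjusted p under 0.05, together with Col1a1, Col1a2, Col3a1, Col6a1, Col6a2, Col6a3, Col4a1, Col4a2, Col5a1, Col5a2 and Col18a1. In the other lists, called genes and some of the smallest p were named. Genes outside this rule (Ddx4, Il7r, Col16a1, Dcn and single markers) were picked with their values in view. The fit, tested on simulated data of 45037 probe sets, recovered 30% of 1.5-fold, 96% of 2-fold and 100% of 4-fold changes, with 6.86% of calls false. The simulated noise was normal, each variance was averaged with a typical one, and the changed probe sets were drawn at random. These shares therefore do not hold for genes as variable as Col1a1, Col1a2 and Col5a2. Promoter letters came from RefSeq. Alternatives covered normalization, dim probe sets, variance, array weights, arrays left out and the choice of probe set.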

Additional observations from a re-analysis of the deposited data

How the results depend on the processing

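The count of collagens that passed (0) was the same under 15 of 16 alternatives. Over the arrays left out in turn it ranged from 0 to 3, with 3 without WT 3. The median log2 difference of the collagens, -0.02, was 0.2 over probe sets with a mean of at least 6, which keep few collagens; it moved little otherwise. The count of collagens standing high on WT 2 was 1 in place of 3 with an excess of at least 1.5, with probe sets at or above the median level and with all probe sets of a gene averaged, and on WT 1 it was 1 with probe sets at or above the median level, a filter that removes Col1a1 and Col5a2. With an excess of at least 0.5, 2 collagens stood high on IkL/L 2 in place of 0, and the genes high on both WT 1 and WT 2 numbered 42 in place of 6, with 3 collagens among them. Calls in the synthesis list fell from 1 to 0 with both WT 1 and WT 2 left out, where Serpinh1 had an adjusted p of 0.0683 by limma at a difference of 1.94. Over the other alternatives Serpinh1 kept its call. Matrix and basement membrane calls ranged from 0 to 2 over the arrays left out, with Fn1 and Tgfbi without IkL/L 3. Cell type marker calls, 8 at first, ranged from 2 (without IkL/L 1) to 10, with 3 without WT 1, and were 1 with both WT 1 and WT 2 left out and 13 with averaged probe sets. The cause was not tested.

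WT and IkL/L samples share replicate numbers 1 to 3, but same-numbered samples correlated in their deviations by 0.0084, -0.112 and 0.0789, so the numbers were not taken as pairs. With the replicate number as a block 0 collagens passed and Col1a1 gave -1.43 (adjusted p = 0.366 by limma).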
